A study of Mus musculus with 33 samples.

Results

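The 9 genes described here mark the B lymphocyte lineage of mouse bone marrow, and they were found by name among the 38899 genes shared by 4 deposited expression tables, with 9 of 9 present. They comprise the B cell receptor signalling chains Cd79a and Cd79b, the mature B cell surface gene Ms4a1 (CD20), the precursor genes Vpreb1, Vpreb3 and Igll1, the recombinase gene Rag1, and the lineage transcription factors Pax5 and Ebf1. They were followed through 33 RNA sequencing libraries of C57BL/6 mice aged 8 to 12 weeks, 3 in each of 11 groups of sorted or whole bone cells. Each table was normalised on its own, so tests were made only within a table and levels of different tables stand side by side.

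The first table held irradiated bone EC (endothelial cells sorted as GFP+ from Cdh5-mTnG reporter mice after 9 Gy of irradiation), bone EC (the same cells of untreated Cdh5-mTnG mice), and wildtype untreated LSK (Lin-Sca1+cKit+ stem and progenitor cells), Lin- (lineage-negative cells) and BMC (whole bone marrow cells). The second table held Vav1 DTX EC and Vav1 control EC, both GFP+ cells. Diphtheria toxin is the labelled treatment of both, and the labels give both the genotype Vav1-Cre R26-DTR Cdh5-mTnG. The 2 groups are told apart by title and column name alone. The column names read Vav1-Cont for the controls and Vav1-Cre for the DTX group. Whether the controls carried Cre or received the toxin is therefore not settled here. Vav1-Cre is active in blood-forming cells, and R26-DTR carries the receptor through which the toxin kills mouse cells. The third table held Apln+ EC (GFP+ cells of tamoxifen-treated Apln-CreERT2 R26-mTmG mice) and diaphysis EC (GFP+ cells of the bone shaft of untreated Cdh5-mTnG mice). In the fourth table were 9Gy1D EC (Cdh5-mTnG mice after 9 Gy) and Esm1+ EC (tamoxifen-treated Esm1-CreER R26-mTmG mice), whose sort is labelled Tomato+/GFP+. Treatment and reporter allele therefore differ together in the fourth table, and reporter allele, tamoxifen and part of the bone differ together in the third. Libraries of BMC and Lin- came from a kit for stranded total RNA, those of the other 9 groups from a kit that amplifies full-length cDNA, so in comparisons across these kits the kit and the cell population cannot be told apart.

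B cells arise in the marrow from lymphoid progenitors. Ebf1 and Pax5 set and hold the B cell programme, and Rag1 with Rag2 cuts the immunoglobulin genes so that they can be joined. In pre-B cells a heavy chain is brought to the surface with a surrogate light chain, made of the products of Vpreb1 and Igll1, and the Cd79a and Cd79b chains carry its signal. The product of Vpreb3 is a related chain that binds newly made heavy chains in the endoplasmic reticulum. Later stages replace the surrogate chain with a kappa or lambda light chain and gain Ms4a1.

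On GRCm38 (GENCODE vM21) all of these are protein-coding genes. Igll1 (ENSMUSG00000075370.12) and Vpreb1 (ENSMUSG00000059305.12) are neighbours on the minus strand of chromosome 16, at 16860671 to 16863985 and 16868403 to 16870843. Vpreb3 (ENSMUSG00000000903.3) lies on the plus strand of chromosome 10 at 75943057 to 75949657. Rag1 (ENSMUSG00000061311.6) lies on the minus strand of chromosome 2 at 101638282 to 101649501, overlapping B230118H07Rik on the same strand (1.35 to 1.68 FPKM in BMC, 1.98 to 2.61 in bone EC and at most 6.53, in LSK). Cd79a (ENSMUSG00000003379.7) is on chromosome 7 at 24897381 to 24902197, and Cd79b (ENSMUSG00000040592.11) on chromosome 11 at 106311341 to 106314762. Ms4a1 (ENSMUSG00000024673.9) is on chromosome 19 at 11249675 to 11266241, Pax5 (ENSMUSG00000014030.15) on chromosome 4 at 44524757 to 44710487 and Ebf1 (ENSMUSG00000057098.14) on chromosome 11 at 44617317 to 45008091. Reads of Vpreb1 can be shared with its close copy Vpreb2, and the first bases of Top3b (at most 10.7 FPKM in any library) overlap its 5′ end on the other strand, so its counts are uncertain to that extent. The microRNA gene Mir5120 lies inside Pax5 on the same strand and was at 5.91, 8.4 and 0 FPKM in BMC, at 1.88, 0 and 0 FPKM in Lin-, and listed at 0 in all other libraries. Annotated genes on the opposite strand also overlap Ms4a1 (4930526L06Rik, at most 1.41 FPKM in any library), Vpreb3 (Gm16221, 2.45), Pax5 (Gm12462, 0.857) and Ebf1 (Gm12158, 3.34).

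Promoters of the precursor genes that move together below are shown, since the same short motifs recur in B cell regulation. RefSeq (GRCm38.p6) gave 8 windows, from 250 bases before to 50 bases after a start site, for 7 of the genes, with 2 windows for Ebf1; Cd79b and Ms4a1 are not shown. RefSeq places the starts of Vpreb1 and Vpreb3 inside the GENCODE gene spans given above. The windows of Igll1 (chr16:16863936-16864235, minus strand), Vpreb1 (chr16:16869206-16869505, minus strand) and Vpreb3 (chr10:75948050-75948349, plus strand) follow, in lower case with motif matches in capitals.
Igll1: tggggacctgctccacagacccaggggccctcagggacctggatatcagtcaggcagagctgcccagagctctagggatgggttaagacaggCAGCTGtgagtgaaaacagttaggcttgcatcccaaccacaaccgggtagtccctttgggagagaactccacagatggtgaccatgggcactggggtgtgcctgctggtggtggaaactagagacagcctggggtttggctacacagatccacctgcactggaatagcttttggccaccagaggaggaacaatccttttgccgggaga
Vpreb1: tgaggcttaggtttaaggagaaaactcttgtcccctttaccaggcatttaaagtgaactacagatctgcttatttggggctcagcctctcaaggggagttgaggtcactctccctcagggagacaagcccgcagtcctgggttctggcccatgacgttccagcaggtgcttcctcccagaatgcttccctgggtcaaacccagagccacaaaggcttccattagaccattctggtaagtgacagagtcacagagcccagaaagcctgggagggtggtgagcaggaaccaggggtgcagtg
Vpreb3: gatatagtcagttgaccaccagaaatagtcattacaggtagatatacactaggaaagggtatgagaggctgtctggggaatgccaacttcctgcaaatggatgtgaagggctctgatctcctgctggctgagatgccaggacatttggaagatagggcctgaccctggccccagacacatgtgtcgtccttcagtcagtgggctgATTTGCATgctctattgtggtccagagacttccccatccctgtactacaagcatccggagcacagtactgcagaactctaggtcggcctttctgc
The capitals in Igll1 mark the E-box CAGCTG, which binds E2A-type factors and begins 158 bases before the start site. Those in Vpreb3 mark the octamer ATTTGCAT of Oct factors, beginning 45 bases before it. Of 32851 promoter windows of this length searched on both strands, 16.3% held CAGCTG, 1.74% held ATTTGCAT, 13.6% held TATAAA and 0.904% held the palindromic consensus of EBF factors. Among the 8 windows of these genes, CAGCTG occurred in 2 (Rag1 and Igll1), ATTTGCAT in 1, and TATAAA and the EBF consensus in 0. These matches describe the letters in the windows and no binding was measured.

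Levels are FPKM (fragments per kilobase of gene, scaled by a divisor for each library) as deposited by the authors. They are given as mean ± SD with n = 3, or per library in the order of replicates 1, 2 and 3. The divisor was not the plain depth, since it ran from 0.85 to 1.48 times the reads recovered from the values. It was 2.29 M for 1.55 M reads in LSK replicate 1, and 4.34 M for 5.11 M reads in BMC replicate 1. The recovered reads ran from 1.55 M per library in LSK to 12.29 M in Vav1 DTX EC, so a gene at a fraction of 1 FPKM rests on few reads in LSK and bone EC. Nothing in the labels tells whether replicates come from separate mice, so p-values measure the spread between these samples, which may be technical. In a bulk library, fewer B cells and less RNA of these genes per cell cannot be told apart. The replicates of Esm1+ EC numbered 1 and 2 differed by little more than sampling noise (a chi-square of 1.39 per gene, against 3.13 or more in every other pair of a group). Apln+ EC replicate 1 stood apart from the other 2 (151 and 182, against 26.4 between them), as did Lin- replicate 3 and Vav1 DTX EC replicate 2.

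By their Cd79a levels the 11 groups are described here as a high set of 6 groups and a low set of 5. Cd79a stood at 209 ± 26.8 FPKM in Vav1 control EC, 150 ± 20.1 in BMC, 148 ± 42.4 in bone EC, 119 ± 19.7 in diaphysis EC, 95.7 ± 71.6 in Apln+ EC and 95.4 ± 5.61 in Esm1+ EC. It stood at 6.25 ± 0.99 in Vav1 DTX EC, 6 ± 4.13 in irradiated bone EC, 5.8 ± 2.46 in 9Gy1D EC, 2.95 ± 2.09 in Lin- and 2.82 ± 1.68 in LSK. The ranges of neighbours overlapped in this order except between Vav1 control EC and BMC, and between Esm1+ EC and Vav1 DTX EC, where the high and low sets meet. The same 6 groups had the highest means for Cd79b, Ms4a1, Vpreb1, Vpreb3, Igll1 and Pax5. Every library of the high set lay above every library of the low set for Cd79a, Cd79b, Ms4a1, Vpreb1, Vpreb3 and Igll1, but not for Pax5, where Apln+ EC replicate 3 (0.603 FPKM) lay under all 3 Lin- libraries (0.605 to 0.819 FPKM). The sets were drawn from these same levels and pool separately normalised values, so this separation only describes the levels. The share of all genes that part the sets in this way was not counted. Rag1 and Ebf1 ordered the groups differently. Rag1 stood at 49.4 ± 12.7 FPKM in BMC, with the next level at 1.82 ± 0.757 in bone EC, then 1.3 ± 1.04 in Lin- and 0.987 ± 0.154 in LSK, above the 4 other endothelial groups of the high set (0.281 to 0.312). Ebf1 stood at 18.1 ± 2.34 in BMC, between 4.04 and 6.81 in 6 endothelial groups including 9Gy1D EC, and at 0.517 ± 0.0869 in LSK.

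**Figure D1:**
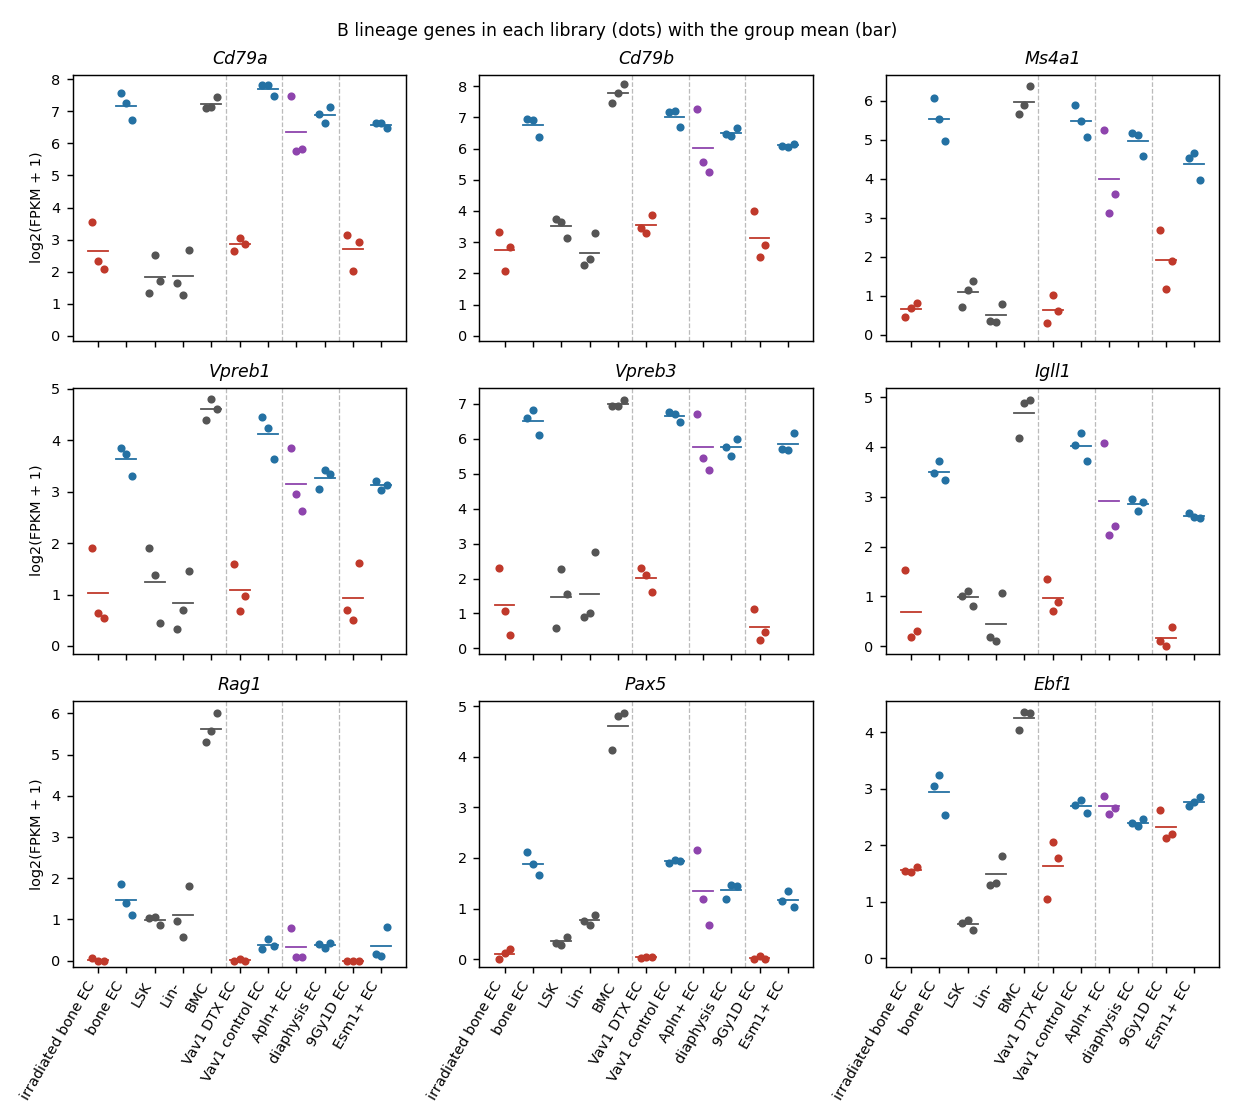
Level of each of the 9 genes in all 33 libraries, as log2(FPKM + 1) on the y axis, with 1 dot per library and a bar at the group mean; dashed lines part the 4 tables. Red marks irradiated bone EC, 9Gy1D EC and Vav1 DTX EC, purple Apln+ EC, blue the other endothelial groups and grey the blood cell groups. Cd79a is at 2.82 to 6.25 FPKM in 5 groups and at 95.4 to 209 in the other 6, while Ebf1 is at 4.04 in 9Gy1D EC and 5.85 in Esm1+ EC.

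Irradiated bone EC carried far less of every one of the 9 genes than bone EC. Cd79a had 10.7, 4.05 and 3.21 FPKM in irradiated bone EC, against 189, 152 and 104 FPKM in bone EC. This is a level 24.8 times as high in bone EC, and the groups did not overlap (log2 difference -4.53, SE 0.4, limma adjusted p = 0.00032). Cd79b had 9.14, 3.25 and 6.16 FPKM in irradiated bone EC, against 123, 119 and 80.9 FPKM in bone EC (log2 difference -3.98, SE 0.33, limma adjusted p = 0.00028). Both chains of the receptor complex thus fell, with every irradiated library below every untreated one. Of all genes tested in this comparison, 54.2% had groups that did not overlap, in either direction. Ms4a1 had 0.374, 0.604 and 0.757 FPKM in irradiated bone EC, from 3, 4 and 6 reads, against 66, 45.1 and 30.4 FPKM in bone EC. All log2 differences here are of log2(FPKM + 1), which understates the change of low genes, and adjusted p-values are Benjamini-Hochberg values over all genes tested. In this comparison 19.4% of 13044 tested genes were called lower at an adjusted p below 0.05, and of these genes 9 of 9 were, with a median log2 difference of -2.82 against 0.06 over all genes. Ms4a1, Rag1 and Pax5 reached 1 FPKM in bone EC alone, so they passed the filter through that group and could only be called lower.

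The precursor genes fell in the same comparison. Vpreb3 had 3.88, 1.08 and 0.302 FPKM in irradiated bone EC, against 95.1, 113 and 67.7 FPKM in bone EC (log2 difference -5.27, SE 0.46, limma adjusted p = 0.00031). Vpreb1 had 2.76, 0.558 and 0.466 FPKM in irradiated bone EC, against 13.5, 12.3 and 8.91 FPKM in bone EC (log2 difference -2.6). Igll1, which encodes the partner of Vpreb1 in the surrogate light chain, had 1.9, 0.143 and 0.24 FPKM in irradiated bone EC, against 10.1, 12.1 and 9.04 FPKM in bone EC (log2 difference -2.82). For all 3 the first irradiated replicate was the highest, and it was also the highest for Cd79a and Cd79b and for the neutrophil markers. The irradiated libraries held 12, 2 and 2 reads of Vpreb1 and 16, 1 and 2 reads of Igll1. Without that replicate 9 of 9 genes were still called lower, where 22.7% of all genes were. In that fit Vpreb1 and Igll1 too reached 1 FPKM in bone EC alone. Without any 1 of the bone EC replicates 6 genes passed the filter and 6 were called lower.

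The factors and the recombinase were at the edge of detection after irradiation, apart from Ebf1. Rag1 had 1, 0 and 0 reads in irradiated bone EC, against 64, 33 and 28 reads (2.65, 1.63 and 1.17 FPKM) in bone EC. Pax5 had 0, 1 and 2 reads in irradiated bone EC, against 42, 28 and 27 reads (3.35, 2.67 and 2.17 FPKM) in bone EC. Both were called lower (limma adjusted p = 0.002 for Rag1 and 0.00044 for Pax5), the only direction that the filter allowed them. With 3 reads as the floor of a library no fold is given. Ebf1 kept 1.92, 1.88 and 2.07 FPKM in irradiated bone EC, against 7.26, 8.41 and 4.77 FPKM in bone EC. Its level was 3.48 times as high in bone EC (log2 difference -1.37, SE 0.2, limma adjusted p = 0.0019). The groups did not overlap, as in 54.2% of all genes tested. Ebf1 is also expressed by marrow stromal cells, whose 8 marker genes summed to 137 to 230 FPKM in irradiated bone EC and 119 to 278 FPKM in bone EC, with 0 of 7 tested markers called, where 41.9% of all genes were called in either direction. The part of such cells in the remaining Ebf1 was not tested.

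Endothelium of the Vav1 DTX group also had less of these genes. Cd79a had 5.24, 7.22 and 6.3 FPKM in Vav1 DTX EC, against 224, 225 and 178 FPKM in Vav1 control EC (log2 difference -4.86, SE 0.16, limma adjusted p = 2.2e-05), a level 33.4 times as high in the controls. Vpreb3 had 3.95, 3.26 and 2.05 FPKM in Vav1 DTX EC, against 108, 103 and 87.6 FPKM in Vav1 control EC (log2 difference -4.65, SE 0.2, limma adjusted p = 5.9e-05). The replicates of each group lay close together and the groups were far apart for both genes. In this comparison 46.3% of all genes tested had groups that did not overlap, in either direction. Igll1 had 1.53, 0.624 and 0.857 FPKM in Vav1 DTX EC, against 15.4, 18.5 and 12.2 FPKM in Vav1 control EC (log2 difference -3.04, SE 0.22, limma adjusted p = 0.00021). Vpreb1 had 2.01, 0.607 and 0.965 FPKM in Vav1 DTX EC, against 21, 17.9 and 11.5 FPKM in Vav1 control EC (log2 difference -3.03, SE 0.3, limma adjusted p = 0.00063). The pair that forms the surrogate light chain was thus lower in every DTX library. Of the genes tested here, 15% were called lower, and 8 of the 8 members that passed the filter were. Pax5 passed it through Vav1 control EC alone, so it could only be called lower. Rag1, at 0, 2 and 0 reads in Vav1 DTX EC and 12, 23 and 19 reads in Vav1 control EC, stayed under the filter.

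The size of the difference varied between genes, a spread that was not itself tested. Cd79b had 9.97, 8.83 and 13.8 FPKM in Vav1 DTX EC, against 143, 145 and 103 FPKM in Vav1 control EC, 12 times as high. Relative to Cd79a in the same library, Cd79b was at 190%, 122% and 219% in Vav1 DTX EC and at 64%, 64.5% and 57.6% in Vav1 control EC. Ms4a1 had 0.225, 1.03 and 0.522 FPKM in Vav1 DTX EC, against 57.7, 43.3 and 32.3 FPKM in Vav1 control EC (log2 difference -4.83). Pax5 was at 1 read in each Vav1 DTX EC library and at 81, 81 and 98 reads in Vav1 control EC, and it was called lower (limma adjusted p = 0.00013). Ebf1 had 1.08, 3.18 and 2.44 FPKM in Vav1 DTX EC, against 5.52, 5.94 and 4.97 FPKM in Vav1 control EC (log2 difference -1.06, SE 0.26, limma adjusted p = 0.024). That call was lost without any 1 of the 3 control replicates (adjusted p = 0.091, 0.096 and 0.073) and with no filter (0.055). The stromal markers also differed here, summing to 33.7 to 47.2 FPKM in Vav1 DTX EC and 187 to 298 FPKM in Vav1 control EC. Of the 6 tested markers 4 were called lower, where 15% of all genes were, and their part in Ebf1 was not tested.

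In 9Gy1D EC against Esm1+ EC, where irradiation and reporter allele differ together, 7 of the 8 members tested were lower. Among them Igll1 and Pax5 passed the filter through Esm1+ EC alone and could only be called lower. Vpreb3 had 1.2, 0.178 and 0.378 FPKM in 9Gy1D EC, from 6, 1 and 2 reads, against 50.9, 50.2 and 70.7 FPKM in Esm1+ EC (log2 difference -5.23, SE 0.27, limma adjusted p = 3.2e-05). Igll1 had 1, 0 and 4 reads in 9Gy1D EC (0.0794, 0 and 0.3 FPKM), against 5.35, 5.07 and 4.96 FPKM in Esm1+ EC (log2 difference -2.45). Both precursor genes were thus close to absent from the counts of 9Gy1D EC. Cd79a had 7.78, 3.05 and 6.58 FPKM in 9Gy1D EC, against 99, 98.1 and 88.9 FPKM in Esm1+ EC, 16.4 times as high (log2 difference -3.9, SE 0.28, limma adjusted p = 0.00012). Ms4a1 had 5.43, 1.27 and 2.68 FPKM in 9Gy1D EC, against 22.2, 24.1 and 14.7 FPKM in Esm1+ EC, 6.5 times as high (log2 difference -2.47, limma adjusted p = 0.0022). Relative to Cd79a, Ms4a1 was at 69.8%, 41.5% and 40.8% in 9Gy1D EC and at 22.4%, 24.5% and 16.6% in Esm1+ EC, a higher share. In irradiated bone EC it was at 3.48%, 14.9% and 23.6%, against 35%, 29.7% and 29.1% in bone EC, a lower one, and neither difference in ratio was tested. Rag1 was listed at 0 in all 3 libraries of 9Gy1D EC, from 0 reads, and Pax5 had 0, 1 and 0 reads there. The background was 23.1% of 11746 genes called lower.

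Ebf1 was the exception in that table. It had 5.14, 3.39 and 3.58 FPKM in 9Gy1D EC, against 5.48, 5.8 and 6.26 FPKM in Esm1+ EC. The groups did not overlap, as in 57.3% of all genes tested, but the difference did not pass the test (log2 difference -0.46, SE 0.18, limma adjusted p = 0.081). It passed without 9Gy1D EC replicate 1 (log2 difference -0.61, limma adjusted p = 0.026). The stromal markers summed to 148 to 317 FPKM in 9Gy1D EC and 181 to 539 FPKM in Esm1+ EC. The sums thus overlapped, while 5 of 7 tested markers were called higher and 0 lower, where 20.6% of all genes were higher and 23.1% lower. Their part in the Ebf1 level was not tested.

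**Figure D2:**
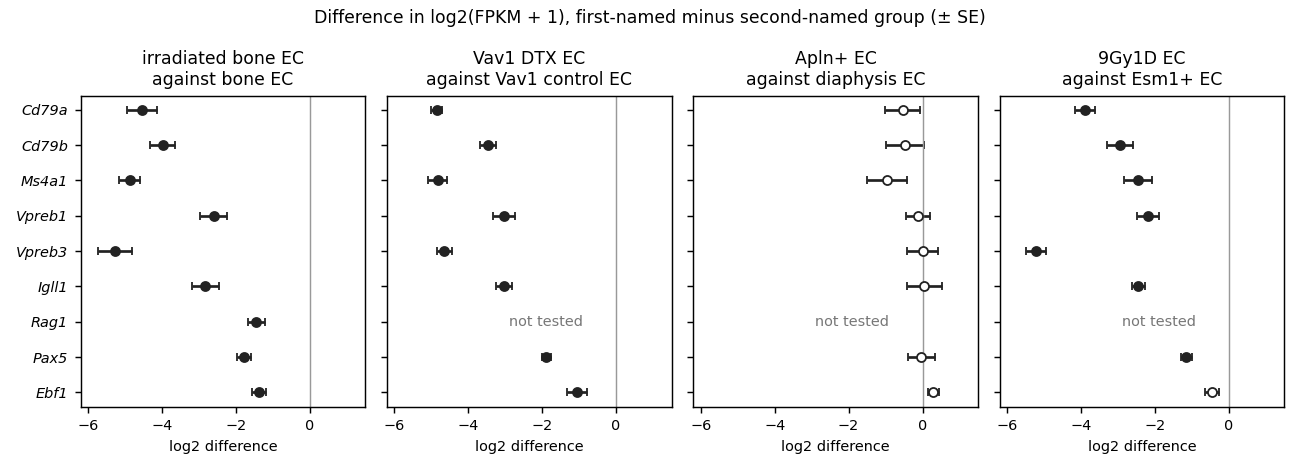
Log2 difference in log2(FPKM + 1) of each gene in the 4 endothelial comparisons (x axis, first-named minus second-named group), with bars of 1 SE, n = 3 per group; filled symbols passed limma at an adjusted p below 0.05 and open ones did not. The 3 comparisons with irradiated or DTX groups lie between -5.27 and -0.46. The Apln+ EC comparison lies between -0.97 and 0.29, so the ranges overlap, and none of its differences passed.

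Between Apln+ EC and diaphysis EC no difference passed the test in the 8 members tested, where 7.49% of 11889 genes were called in either direction and 2467 genes had an unadjusted p below 0.05. Among the members 0 were called by limma, 0 had an unadjusted p below 0.05, and limma voom on the recovered reads also called 0. Cd79a had 178, 53.5 and 55.3 FPKM in Apln+ EC, against 119, 99.4 and 139 FPKM in diaphysis EC (log2 difference -0.54, SE 0.47, limma adjusted p = 0.61). Replicate 1 of Apln+ EC lay above the diaphysis range and the other 2 below it, and the same held for Cd79b and Ms4a1. Igll1 had 15.9, 3.69 and 4.34 FPKM in Apln+ EC, against 6.79, 5.59 and 6.4 FPKM in diaphysis EC. That replicate also had the most neutrophil markers of its group (a sum of 144000 FPKM, against 55000 and 42700 in the others) and the fewest endothelial ones (1080, against 4490 and 5110). Without it 17% of 11527 genes were called lower in Apln+ EC by limma, and of the 8 members tested 4 were: Ms4a1 (log2 difference -1.6, adjusted p = 0.0016), Cd79a (-1.1, adjusted p = 0.0018), Cd79b (-1.1, adjusted p = 0.0013) and Igll1 (-0.53, adjusted p = 0.025), the last with its sign turned from 0.05. Ebf1 had 6.31, 4.86 and 5.3 FPKM in Apln+ EC, against 4.23, 4.05 and 4.54 FPKM in diaphysis EC, with no overlap but no call (adjusted p = 0.35 in limma). Of all genes tested there, 27.8% had groups that did not overlap.

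Unsorted marrow and the blood cell fractions gave the range of these genes outside endothelium. In Lin- against BMC, where 28.4% of genes were called lower, 9 of 9 members were lower, with a median log2 difference of -4.52. Ms4a1 and Pax5 reached 1 FPKM in BMC alone here and could only be called lower. Cd79a had 2.11, 1.42 and 5.33 FPKM in Lin-, against 137, 139 and 173 FPKM in BMC, and Igll1 had 0.135, 0.0798 and 1.1 FPKM in Lin-, against 17.2, 28.6 and 29.8 FPKM in BMC. Lineage depletion commonly removes B220+ cells, and the third Lin- replicate, which stood apart, was the highest of its group for 9 of 9 members. Its erythroid markers summed to 60200 FPKM, against 260 and 273 FPKM in the other 2 Lin- libraries. Ebf1 had the smallest difference (1.46, 1.52 and 2.52 FPKM in Lin-, against 15.4, 19.6 and 19.3 FPKM in BMC; log2 difference -2.77, SE 0.19, limma adjusted p = 5.4e-05). Stromal markers summed to 830 to 2080 FPKM in Lin- and to 3.72 to 13.2 FPKM in BMC, and their part in it was not tested.

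LSK carried little of any member. In LSK against BMC, 9 of 9 were lower (33.8% of all genes were), from Vpreb1 at a log2 difference of -3.35 to Vpreb3 at -5.53. Pax5 and Ebf1 reached 1 FPKM in BMC alone in that comparison and could only be called lower. Cd79b was the highest member in LSK, at 12.5, 11.4 and 7.77 FPKM in LSK, against 173, 219 and 268 FPKM in BMC. In LSK against Lin-, where 33.4% of genes were called higher and 25.5% lower, 7 members were tested and 2 passed. Of these, Ebf1 reached 1 FPKM in Lin- alone, so it could only be called lower. Ebf1 was lower (0.537, 0.593 and 0.422 FPKM in LSK, against 1.46, 1.52 and 2.52 FPKM in Lin-; log2 difference -0.88, SE 0.19, limma adjusted p = 0.0056). Cd79b was higher (12.5, 11.4 and 7.77 FPKM in LSK, against 3.79, 4.46 and 8.74 FPKM in Lin-; log2 difference 0.84, SE 0.3, limma adjusted p = 0.046), with groups that overlapped and a call lost without LSK replicate 1 or 2 or Lin- replicate 1 or 2 (adjusted p from 0.12 to 0.14). Rag1 had 1.06, 1.09 and 0.81 FPKM in LSK and 0.931, 0.496 and 2.48 FPKM in Lin-, and did not pass (limma adjusted p = 0.75). Igll1, at 5, 7 and 4 reads in LSK and 2, 1 and 11 reads in Lin-, did not pass either (log2 difference 0.53, SE 0.27, limma adjusted p = 0.14), but it was called higher in TPM (1.47, adjusted p = 0.011) and by limma voom on the recovered reads (2.45, adjusted p = 0.015).

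Sorted bone EC were close to whole marrow in the mean levels of Cd79a and, less so, Ms4a1. In bone EC against LSK, 8 of 9 members were higher in bone EC, where 29.5% of all genes were, and Rag1 was not called (log2 difference 0.47, SE 0.22, limma adjusted p = 0.1). Pax5 and Ebf1 reached 1 FPKM in bone EC alone there, so they could only be called higher. In bone EC against BMC, 7 of 9 were lower, where 34.6% of all genes were. Cd79a (148 ± 42.4 FPKM in bone EC and 150 ± 20.1 in BMC; log2 difference -0.04, SE 0.22, limma adjusted p = 0.87) and Ms4a1 (47.2 ± 17.9 in bone EC and 62.9 ± 16.4 in BMC; log2 difference -0.45, SE 0.29, limma adjusted p = 0.2) did not pass. Ms4a1 passed without bone EC replicate 1 (log2 difference -0.72, limma adjusted p = 0.039). The call of Vpreb3 (log2 difference -0.48, limma adjusted p = 0.049) was lost in 13 of 16 alternatives, with a log2 difference of -0.07 on TPM. Rag1 and Pax5 stood out by size. Rag1 had 2.65, 1.63 and 1.17 FPKM in bone EC, against 38.5, 46.5 and 63.3 FPKM in BMC, 27.2 times as high, and Pax5 had 3.35, 2.67 and 2.17 FPKM in bone EC, against 16.6, 26.8 and 28.1 FPKM in BMC, 8.72 times as high (limma adjusted p = 4.5e-06 for Rag1 and 2.5e-05 for Pax5).

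The same contrast showed when each gene was set against Cd79a of its own library, a ratio that does not depend on how the library was scaled. Rag1 was at 1.2% ± 0.178 of Cd79a in bone EC, 0.147% ± 0.0492 in Vav1 control EC, 0.21% ± 0.167 in Apln+ EC, 0.248% ± 0.0193 in diaphysis EC and 0.344% ± 0.432 in Esm1+ EC, against 32.7% ± 4.33 in BMC. Pax5 was at 1.32% to 1.87% of Cd79a in these 5 endothelial groups and at 15.9% ± 3.58 in BMC. The surrogate light chain genes differed less, Vpreb1 at 7.53% to 9.9% in the endothelial groups and 15.8% ± 3.08 in BMC, and Igll1 at 5.32% to 7.89% in the endothelial groups and 16.8% ± 3.99 in BMC. Ms4a1 was at 31.3% ± 3.22 in bone EC, 21.1% ± 4.12 in Vav1 control EC, 18.5% ± 3.51 in Apln+ EC, 26.8% ± 9.12 in diaphysis EC and 21.2% ± 4.13 in Esm1+ EC, against 41.7% ± 5.45 in BMC. For 7 of the 8 genes all 15 endothelial libraries lay below the 3 BMC libraries. The exception was Vpreb3, at 44.4% to 80.1% in the endothelial libraries and 79.9% to 88.3% in BMC. The gap was widest for Rag1 and Pax5, with Pax5 at most 2.37% in an endothelial library and at least 12.1% in BMC, and narrow for Ms4a1 (at most 35% and at least 36.2%) and Vpreb1 (12.7% and 13.5%). All 8 ratios share Cd79a as the denominator, so a difference in Cd79a alone would move them together, and they are not 8 separate results. The share of all genes that lie below BMC in this way was not counted. These ratios were not tested, and the kit and the population cannot be told apart.

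**Figure D3:**
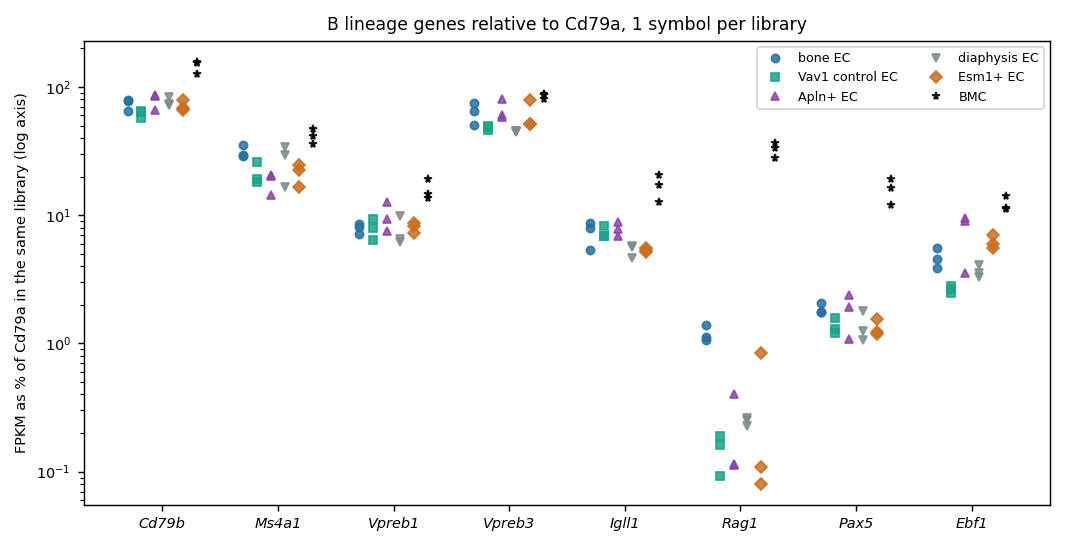
FPKM of 8 genes as a percentage of Cd79a in the same library (y axis, log scale), 1 symbol per library, for the 6 groups in which Cd79a averaged over 95 FPKM. All genes but Vpreb3 are lower in all 15 endothelial libraries than in the 3 BMC libraries, with the widest gap for Rag1 (0.0806% to 1.4% in endothelial libraries and 28.1% to 36.7% in BMC). The ratios share Cd79a as the denominator and are not separate results.

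Within the first table, the 36 pairs of members correlated over 15 libraries with Pearson's r from 0.687 (Cd79a and Rag1) to 0.99 (Cd79b and Igll1). Vpreb1 and Igll1, the surrogate light chain pair, were at 0.985, and Rag1 and Pax5 at 0.967. These values describe 5 groups that differ in depth and kit. Among 9500 other genes, those with a high mean correlation over the members included Agpat9 (0.945), Fcrla (0.944), Atp1b1 (0.942) and Spib (0.938). Nearest to single members were Ccr7 for Cd79a (0.988), Faim3 for Ms4a1 (0.987), Atp1b1 for Cd79b (0.989), Vpreb1 (0.975), Vpreb3 (0.981) and Igll1 (0.985), Rrm2b for Rag1 (0.99), Chst3 for Pax5 (0.991) and C3 for Ebf1 (0.978).

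Other genes of the lineage were followed in 3 lists. The precursor list holds Rag2, Dntt, Il7r, Vpreb2, Lef1, Sox4, Blnk, Arpp21 and Flt3. Of all genes tested, 22.5% were called higher and 19.4% lower in irradiated bone EC, 11.3% higher and 15% lower in Vav1 DTX EC, 20.6% higher and 23.1% lower in 9Gy1D EC, and 2.84% higher and 4.64% lower in Apln+ EC. In irradiated bone EC against bone EC, 5 of the 6 tested were lower and 0 higher. Dntt, which adds bases at immunoglobulin joints, was at 0.565 ± 0.503 FPKM in irradiated bone EC and 15.5 ± 2.43 FPKM in bone EC, and the adaptor Blnk at 1.04 ± 0.364 FPKM in irradiated bone EC and 10.6 ± 2.23 FPKM in bone EC. Flt3 (log2 difference -1.9) and Lef1 (-1.06) were lower as well. Vav1 DTX EC had 7 of 7 tested precursor genes lower than Vav1 control EC, with Dntt at 1.79 ± 1.09 FPKM in Vav1 DTX EC and 19.6 ± 2.18 FPKM in Vav1 control EC. In 9Gy1D EC 6 of 7 were lower than in Esm1+ EC, with Dntt at 0.0989 ± 0.0857 FPKM in 9Gy1D EC and 13.1 ± 4.6 FPKM in Esm1+ EC. In Apln+ EC 1 of 7 was called, Lef1 (3.8 ± 0.536 FPKM in Apln+ EC and 1.27 ± 0.201 FPKM in diaphysis EC), which was higher and was named after its value was seen. Of the 3 blood cell groups, LSK had the highest levels of 2 genes of early lymphoid progenitors. Dntt was at 222 ± 69.3 FPKM in LSK, 11.6 ± 6.94 FPKM in Lin- and 47.9 ± 10.3 FPKM in BMC, and the cytokine receptor gene Flt3 at 59.5 ± 1.97 FPKM in LSK, 5.91 ± 3.41 FPKM in Lin- and 5.26 ± 0.35 FPKM in BMC. Il7r, the receptor that B cell precursors need in mice, was lower, at 1.79 ± 1.39 FPKM in LSK and 26.4 ± 1.79 FPKM in BMC.

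The regulator list holds Tcf3, Ikzf1, Ikzf3, Foxo1, Spib, Pou2af1, Pou2f2, Irf4, Irf8, Bcl11a and Bach2. Of 11 tested, 8 were lower and 0 higher in irradiated bone EC, and 9 lower and 0 higher in Vav1 DTX EC. In 9Gy1D EC 8 of 9 tested were lower. Spib, which is also a gene of plasmacytoid dendritic cells, was at 0.756 ± 0.499 FPKM in irradiated bone EC and 57.8 ± 16.9 FPKM in bone EC, and Pou2af1, a coactivator of Oct factors, at 4.37 ± 1.68 FPKM in irradiated bone EC and 32.8 ± 8.45 FPKM in bone EC. Of 7 plasmacytoid dendritic markers, 4 were lower and 2 higher in irradiated bone EC (median log2 difference -2.49), and they summed to 504 to 604 FPKM in irradiated bone EC and 348 to 478 FPKM in bone EC. In Vav1 DTX EC 5 of the 7 were lower and 0 higher (median -2.91), with sums of 112 to 320 FPKM in Vav1 DTX EC and 389 to 411 FPKM in Vav1 control EC, and in 9Gy1D EC 3 of 6 tested were lower and 2 higher (median -1.35), with sums of 440 to 608 FPKM in 9Gy1D EC and 105 to 144 FPKM in Esm1+ EC. In Vav1 DTX EC Pou2af1 reached 0.633 ± 0.288 FPKM, against 29.1 ± 5.12 FPKM in Vav1 control EC. Apln+ EC had 2 regulators lower, Spib (4.75 ± 3.77 FPKM in Apln+ EC and 22.4 ± 2.31 FPKM in diaphysis EC) and Irf8 (27.7 ± 9.86 FPKM in Apln+ EC and 105 ± 2.41 FPKM in diaphysis EC). Of the plasmacytoid dendritic markers 6 of 7 were lower in the same comparison, with sums of 147 to 250 FPKM in Apln+ EC and 627 to 853 FPKM in diaphysis EC, and their part in Spib and Irf8 was not tested in any of these comparisons. In bone EC against BMC, 7 of 11 regulators tested were lower and 2 higher, where 34.6% of all genes were lower and 35.8% higher.

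The surface and signalling list includes Cd22, Cd72, Cd37, Blk, Btk, Syk, Cd40, Fcer2a, Cr2, Fcrla, Fcmr (listed as Faim3), Tnfrsf13c, Cxcr5, Bank1, Ighm, Igkc, Cd74 and H2-Aa. In irradiated bone EC 15 of 18 tested were lower and 1 higher. Faim3, an IgM Fc receptor, was at 0.634 ± 0.161 FPKM in irradiated bone EC and 32.7 ± 13.2 FPKM in bone EC. The gene that rose was Igkc, the kappa light chain constant region, named here after its value was seen, at 11500, 5300 and 5630 FPKM in irradiated bone EC, against 2310, 1820 and 2990 FPKM in bone EC (log2 difference 1.59, SE 0.37, limma adjusted p = 0.013). The 6 plasma cell markers summed to 987 to 1280 FPKM in irradiated bone EC and 232 to 341 FPKM in bone EC, with 2 of 6 called higher and 2 lower, and their part in Igkc was not tested.

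Igkc did not move one way in the 3 comparisons with lower members. In Vav1 DTX EC 16 of 18 tested surface genes were lower and Igkc was among them, at 62.8, 29 and 19.3 FPKM in Vav1 DTX EC, against 5510, 4700 and 3670 FPKM in Vav1 control EC (log2 difference -7.07, SE 0.4, limma adjusted p = 1e-04). Ighm, the IgM heavy chain, was lower there too, at 46.5 ± 8.27 FPKM in Vav1 DTX EC and 1130 ± 279 FPKM in Vav1 control EC. Ighm was not called in the other 2 comparisons, at 1830 ± 864 FPKM in irradiated bone EC and 885 ± 231 FPKM in bone EC (log2 difference 0.99, SE 0.36, limma adjusted p = 0.064), and at 1010 ± 1170 FPKM in 9Gy1D EC and 1360 ± 621 FPKM in Esm1+ EC (log2 difference -1.01, SE 0.84, limma adjusted p = 0.37). In 9Gy1D EC 14 of 18 were lower, with Faim3 at 1.66 ± 1.04 FPKM in 9Gy1D EC and 16.5 ± 3.12 FPKM in Esm1+ EC, while Igkc was not called, and is named after its value was seen, at 2330, 2250 and 8060 FPKM in 9Gy1D EC and 4290, 4290 and 1550 FPKM in Esm1+ EC (log2 difference 0.19, SE 0.61, limma adjusted p = 0.83). Whether the Igkc differences of these tables differ from each other was not tested. Cd74 and H2-Aa, of antigen presentation by MHC class II, were higher in bone EC than in BMC, Cd74 at 2380 ± 220 FPKM in bone EC and 571 ± 124 FPKM in BMC. In Apln+ EC 3 of 18 surface genes were lower than in diaphysis EC, Fcer2a, H2-Aa and Cd74, with Cd74 at 540 ± 291 FPKM in Apln+ EC and 3240 ± 334 FPKM in diaphysis EC.

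In the comparisons with blood cell groups, the counts of the 3 lists stood beside large shares of all genes called. In bone EC against LSK, where 29.5% of all genes were higher and 30.6% lower, 3 of 8 precursor genes were higher and 3 lower, near those shares, while 7 of 10 regulators were higher and 1 lower, and 15 of 18 surface genes higher and 1 lower. In bone EC against BMC, where 35.8% of all genes were higher and 34.6% lower, 6 of 8 precursor genes were lower and 0 higher, and among 18 surface genes 7 were lower, near the share of all genes, and 4 higher. In LSK against Lin-, where 33.4% of all genes were higher and 25.5% lower, 4 of 5 precursor genes and 8 of 13 surface genes were higher, with 0 and 2 lower, and the regulators, 2 of 10 higher and 3 lower, lay near those shares. In LSK against BMC, where 39.3% of all genes were higher and 33.8% lower, 3 of 8 precursor genes were higher, near that share, and 4 lower. Of the others in that comparison, 9 of 11 regulators were lower and 1 higher, and 16 of 18 surface genes lower and 1 higher. In Lin- against BMC, where 29.1% of all genes were higher and 28.4% lower, 6 of 8 precursor genes, 9 of 11 regulators and 17 of 18 surface genes were lower and 0 higher.

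Markers of other cells moved with these comparisons, but not in one pattern. Of all genes tested, 19.4% were called lower and 22.5% higher in irradiated bone EC. These shares were 15% lower and 11.3% higher in Vav1 DTX EC, and 23.1% lower and 20.6% higher in 9Gy1D EC. Neutrophil markers (10 genes) took 0.565% ± 0.461 of all FPKM in irradiated bone EC and 10.5% ± 0.458 in bone EC, but 13.1% ± 5.11 in Vav1 DTX EC and 16.1% ± 0.386 in Vav1 control EC, with 10 of 10 called lower in irradiated bone EC and 3 of 10 in Vav1 DTX EC. In 9Gy1D EC they took 8.89% ± 2.43, and 17% ± 0.869 in Esm1+ EC, with 7 of 10 lower. The 9 B lineage genes took 0.0048% ± 0.00241 in irradiated bone EC, 0.0949% ± 0.0258 in bone EC, 0.00529% ± 0.000225 in Vav1 DTX EC, 0.0914% ± 0.0107 in Vav1 control EC, 0.00574% ± 0.00251 in 9Gy1D EC and 0.054% ± 0.00127 in Esm1+ EC. The B lineage shares of irradiated bone EC, Vav1 DTX EC and 9Gy1D EC lay close together, while the neutrophil shares of these groups ranged widely. These groups come from separately normalised tables, and this contrast was not tested. Erythroid markers summed to 202 to 574 FPKM in irradiated bone EC and 25800 to 27400 FPKM in bone EC, and to 982 to 1950 FPKM in Vav1 DTX EC and 26800 to 50000 FPKM in Vav1 control EC, with 7 of 7 lower in each. They summed to 12700 to 15900 FPKM in 9Gy1D EC and 22600 to 27200 FPKM in Esm1+ EC, with 6 of 7 lower. Endothelial markers (10 genes) took 1.29% ± 0.279 in irradiated bone EC and 0.347% ± 0.0398 in bone EC, and 0.348% ± 0.159 in Vav1 DTX EC and 0.246% ± 0.0418 in Vav1 control EC, with 10 of 10 higher in irradiated bone EC and 0 of 10 called in Vav1 DTX EC. In the fourth table they took 1.05% ± 0.235 in 9Gy1D EC and 0.307% ± 0.099 in Esm1+ EC, with 9 of 10 higher. The 4 pan-leukocyte markers, Ptprc (CD45) among them, summed to 177 to 349 FPKM in irradiated bone EC and 983 to 1090 FPKM in bone EC, with 4 of 4 lower. They summed to 572 to 1140 FPKM in Vav1 DTX EC and 1750 to 1920 FPKM in Vav1 control EC, with 3 of 4 lower, and to 503 to 944 FPKM in 9Gy1D EC and 1560 to 1630 FPKM in Esm1+ EC, with 4 of 4 lower. The part of other cells in these results was not tested.

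**Figure D4:**
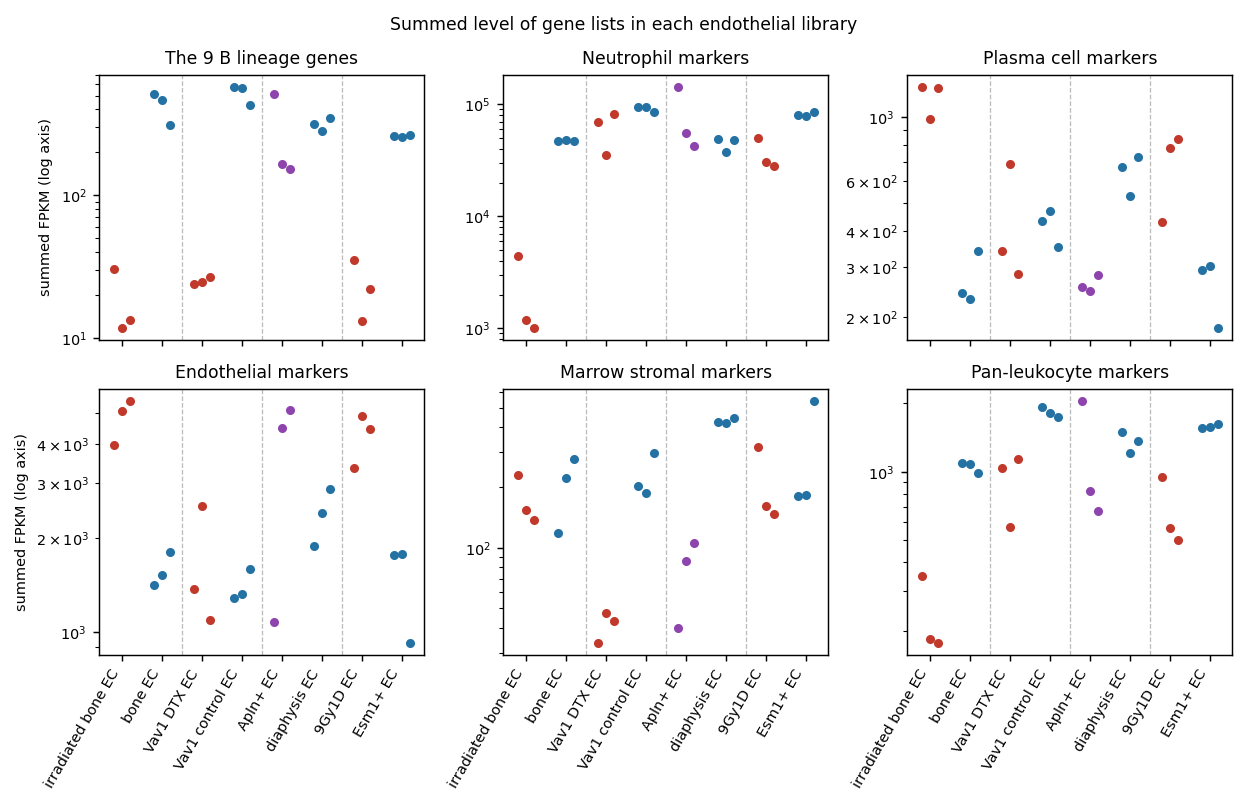
Summed FPKM (y axis, log scale) of the 9 B lineage genes and of 5 marker lists in each of the 24 endothelial libraries, 1 dot per library, with dashed lines between tables. The B lineage sums are 11.7 to 35.4 in the irradiated, DTX and 9Gy1D libraries and 152 to 578 in the others, while the neutrophil sums of Vav1 DTX EC (35000 to 82600) and 9Gy1D EC (28300 to 49900) stay far above those of irradiated bone EC (1000 to 4460).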

How the data were processed

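RNA was sequenced in 33 libraries of 11 groups, and the authors deposited FPKM per gene in 4 tables that were normalised separately. The submitters' processing notes name TopHat2 2.1.1, the genome build mm10, DESeq2 1.18.1, bcl2fastq 2.19.1.403 and HTSeq 0.6.1; strand settings and annotation are not given in the sources used here. Each table held 38926 genes, with 0 columns outside the 33 libraries. Names of 27 genes had turned into dates in 3 of the tables, and these genes were left out. Per the labels' protocols, 6 libraries (BMC and Lin-) were made with TruSeq Stranded Total RNA and 27 with SMART-Seq v4 and Nextera XT.

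For 38899 genes (100%) the deposited FPKM of the 33 libraries were whole multiples of 1 unit within 0.005 of a read, which gives the reads behind each value (1.55 to 12.29 M per library); 6541 genes were at 0 in all libraries. Of these genes 35630 were found in GENCODE vM21, and the lengths behind FPKM were 2057 bases for Ms4a1, 1113 for Vpreb1 and 3424 for Pax5, shorter than the 6187, 1199 and 8853 bases of all their exons there.

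Values were used as log2(FPKM + 1). A gene entered a comparison when 3 or more of its 6 libraries had 1 FPKM or more, and was fitted with limma 3.58.1 (eBayes with trend, R 4.3.3), two-sided, with Benjamini-Hochberg adjustment over all genes tested and calls at 0.05. The 6 libraries of each of 9 comparisons entered its fit. A gene that reached 1 FPKM in the libraries of 1 group alone could only be called higher in that group. Such genes are part of the counts of members, lists and all genes. An exact permutation test of 3 against 3 cannot go below 0.1 and was not used. The values are not counts, so a count test was not the main test. The fit was tested on simulated data.

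The members and all lists were chosen with earlier results of these data known. All members are named; of each list up to 4 called genes with the largest absolute log2 difference per comparison could be named, and for likeness the 3 nearest genes of a member and the 5 nearest to all, over the 15 libraries of the first table, among genes that reach 5 FPKM in 3 or more of them, without immunoglobulin segments and predicted or Rik genes. 1 gene of the surface and signalling list is counted but not reported here. Of 40 list genes, Ighd was not matched and Fcmr was matched through an older symbol. Alternatives were 2 other pseudocounts (0.1 and 5), another filter (mean FPKM of 5 or more) or none, other scalings (TPM, median of ratios, endothelial markers), no trend, a replicate block, 1 fit over a table, limma voom on the recovered reads and leaving out each library. Averaging Esm1+ EC replicates 1 and 2 was added after seeing the data. That the filter on low values uses FPKM as deposited under every scaling was also settled after results had been seen: filtering after rescaling had changed 2 choices at once, and correcting this changed counts under TPM and kept Cd79b called in bone EC against BMC there, with the main results as before.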

Additional observations from a re-analysis of the deposited data

How the results depend on the processing

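Over 1163 alternative fits of single members, 1130 kept their direction and side of the threshold, 24 lost a call, 8 gained one and 1 reversed: Igll1 in Apln+ EC against diaphysis EC without Apln+ EC replicate 1, at -0.53 (range over libraries left out -0.53 to 0.39). Members called in LSK against Lin- fell to 1 of 7 with a pseudocount of 0.1, to 1 of 9 with no filter, to 1 of 1 with a mean of at least 5 FPKM and to 1 of 7 with the replicate block. They rose to 3 of 7 in TPM and by limma voom, where Igll1 gained a call (1.47 and 2.45, against 0.53). With a mean of at least 5 FPKM, 4 of 4 members remained testable and called in 9Gy1D EC against Esm1+ EC, and genes called numbered 5083 against 8608 in bone EC against LSK, 6069 against 9287 in bone EC against BMC, 4675 against 8175 in LSK against Lin-, 6190 against 10259 in LSK against BMC, and 445 against 890 in Apln+ EC against diaphysis EC, with fewer genes tested.

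Scaling to the endothelial markers moved the median of all genes by -1.07 in irradiated bone EC, -1.61 in 9Gy1D EC, -0.23 in Vav1 DTX EC and -0.1 in Apln+ EC; genes called in those 4 comparisons were then 10028 (292 higher and 9736 lower, against 2938 and 2525), 9875 (311 and 9564, against 2422 and 2711), 1303 (124 and 1179, against 1317 and 1748) and 367 (154 and 213, against 338 and 552). TPM moved that median by 0.3, -0.71, 0.38, 0.91, 1.11, 0.23, 0.26, -0.1 and 0.23 in the order irradiated bone EC against bone EC, bone EC against LSK, bone EC against BMC, LSK against Lin-, LSK against BMC, Lin- against BMC, Vav1 DTX EC, Apln+ EC and 9Gy1D EC. Higher and lower calls became 4075 and 1915 in irradiated bone EC, 2332 and 7904 in bone EC against LSK (4219 and 4389 in FPKM), 6186 and 2904 in bone EC against BMC (4722 and 4565), 7976 and 1329 in LSK against Lin- (4638 and 3537), 9414 and 1995 in LSK against BMC (5513 and 4746), 2880 and 1313 in Vav1 DTX EC, 258 and 673 in Apln+ EC, and 3450 and 1939 in 9Gy1D EC. No member that was called in an endothelial comparison changed sign under these scalings; in 9Gy1D EC Ebf1 was called with the endothelial scaling (-2.02). Against FPKM, limma voom gave 3071 higher and 6490 lower in bone EC against LSK, 6071 and 3326 in bone EC against BMC, 6664 and 1748 in LSK against Lin-, and 8350 and 2753 in LSK against BMC.

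Leaving out 1 library at a time, members called ran from 6 to 9 in irradiated bone EC, 6 to 8 in bone EC against LSK, 6 to 7 in bone EC against BMC, 0 to 2 in LSK against Lin-, 7 to 9 in LSK and in Lin- against BMC, 6 to 8 in Vav1 DTX EC, 0 to 4 in Apln+ EC and 5 to 8 in 9Gy1D EC, partly because fewer members passed the filter. Genes called ran from 3724 to 5919, 6345 to 7581, 6977 to 8152, 4940 to 8253, 7767 to 9053, 5179 to 7698, 1124 to 4764, 149 to 3835 and 3417 to 4794 in the same 9 comparisons. Against the count with all libraries, genes called moved by over 1.5 times without Vav1 DTX EC replicate 2 (4764) or Vav1 control EC replicates 1, 2 or 3 (1124, 1199 and 1194, against 3065), without Apln+ EC replicates 1, 2 or 3 (3835, 311 and 482) or diaphysis EC replicates 1, 2 or 3 (182, 166 and 149, against 890), without LSK replicates 1, 2 or 3 (5030, 5076 and 4940, against 8175 in LSK against Lin-) and without Esm1+ EC replicate 2 (3417, against 5133). Other causes were not tested.

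Same-numbered replicates did not deviate together in every pair of any comparison (correlations from -0.22 to 0.33), and the main fits treat the samples as unpaired. With so few libraries per group this cannot exclude that same-numbered samples were handled together. With the replicate block, irradiated bone EC gave 4402 genes called, Vav1 DTX EC gave 2123, Apln+ EC 891 and 9Gy1D EC 4521, and among members it lost Cd79b in LSK against Lin- and Vpreb3 in bone EC against BMC. With Esm1+ EC replicates 1 and 2 averaged, 3439 genes and 5 of 6 members tested were called. Log2 ratios to Cd79a with a pseudocount moved by 1 SD or more in 95 of 176 alternatives, which changed only the pseudocount. The percentages of Cd79a given above use no pseudocount, so this does not bear on them. Levels in TPM lay 1 SD or more from those in FPKM in 86 of 99. TPM is another unit with another library total, so this count does not measure how stable the levels are. Shallow LSK and bone EC libraries limit Rag1 and Pax5, where 1 read is worth more FPKM.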
